A study of Mus musculus with 4 samples.

Results

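Hox genes encode homeodomain transcription factors that give cells along the body axis and along a limb their regional identity. They lie in 4 clusters (A, B, C and D), within which genes are ordered from paralog group 1 to paralog group 13, and a paralog group holds the related genes of the different clusters. Low-numbered groups are known for patterning the head and neck, and high-numbered groups for the trunk, tail and limbs, where adult connective tissue cells often keep the Hox pattern of the place they formed in. Hox genes of groups 9 to 13 pattern the limb segments, and those of group 11 are known for the lower leg and forearm, the segment in which the Achilles and plantaris tendons lie.

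The genes described here are those whose symbol is Hox, a cluster letter and a number, on probe sets with exactly 1 gene symbol. They number 36, among 22180 genes in all. Hoxa11 and Hoxd4 had no probe set with their symbol alone and are not analysed here. Hoxb5 had 2 probe sets and was represented by the one of higher mean over all arrays; each other gene had 1.

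Expression was measured on 4 arrays of a Mouse Gene ST 2.1 strip, 2 from males and 2 from females, to describe normal expression in the tendon cells of each sex. All mice were wild-type C57Bl/6, an inbred laboratory strain, aged 4 months and untreated, so the sexes share genotype, age and condition. The Achilles and plantaris tendons of an animal were pooled and homogenized whole, although the labels name the cells as tenocytes, so the signal comes from all cell types of the tendon and of what adhered to it. The labels give 3 RNA wells per sample and do not say whether these were pooled on the array. Nothing in the labels ties the 2 samples of a sex to different mice, and a p-value then reflects the spread between these samples alone, which can be technical.

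The labels were checked first. Xist, transcribed from the inactive X chromosome, was at 2.47 and 1.98 in the males and at 7.34 and 8.04 in the females, on the log2 scale of the deposited values. The Y-linked Eif2s3y was at 4.46 and 4.96 in the males and at 2.86 and 1.65 in the females. Both genes separated the sexes as labelled. Of the 5 Y-linked genes measured, all 5 had a lower mean in females, but the arrays of Zfy2 overlapped. Uty, Usp9y and Zfy2 lay below background (defined below) on every array, and Kdm5d exceeded it in male 2 alone. Eif2s3y in female 1 exceeded the background of that array (2.77), so a value above background need not be a transcript. The tendon genes Scx (3.18 to 3.58) and Tnmd (4.39 to 5.06) gave signal on all 4 arrays, as did 7 of 8 tendon cell markers. Skeletal muscle markers did too (10 of 10, with Ckm between 9.72 and 10.52), and their median per array was 10.20 to 10.35 in males and 9.53 to 10.11 in females. Keratinocyte markers were above background on all 4 arrays in 0 of 5 members. Adipocyte markers had a median of 4.58 to 5.10 in males and 5.81 to 6.06 in females, and macrophage markers one of 3.8 to 4.0 and of 3.6 to 5.5. Their part in the Hox values was not tested. In whole tissue, fewer cells of a type and less RNA per cell cannot be told apart.

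Signal above background was found for few Hox genes. Background was taken on each array as the 95th percentile of 1405 probe sets of olfactory and vomeronasal receptor genes, families mostly silent outside sensory tissue. It was 2.90 in male 1, 2.85 in male 2, 2.77 in female 1 and 2.73 in female 2. This level was thus higher in males, so a call that differs between arrays or sexes can partly reflect it. A gene is called above background here when it exceeded the background of the same array on all 4 arrays. Of the 36 Hox genes, 5 (13.9%) did so, beside 31.5% of all 22180 genes. A further 10 exceeded it on 1 to 3 arrays (15.9% of all genes), and 21 on none (52.6% of all genes). Probe sets differ in affinity, so a value is set against the background of its array and not against the value of another gene, and a gene below background is not shown to be silent. The 5 genes were Hoxc4, Hoxc9, Hoxc10, Hoxd8 and Hoxa7: 3 of 9 measured genes of cluster C, 1 of 8 of cluster D, 1 of 9 of cluster A and 0 of 10 of cluster B.

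**Figure D1:**
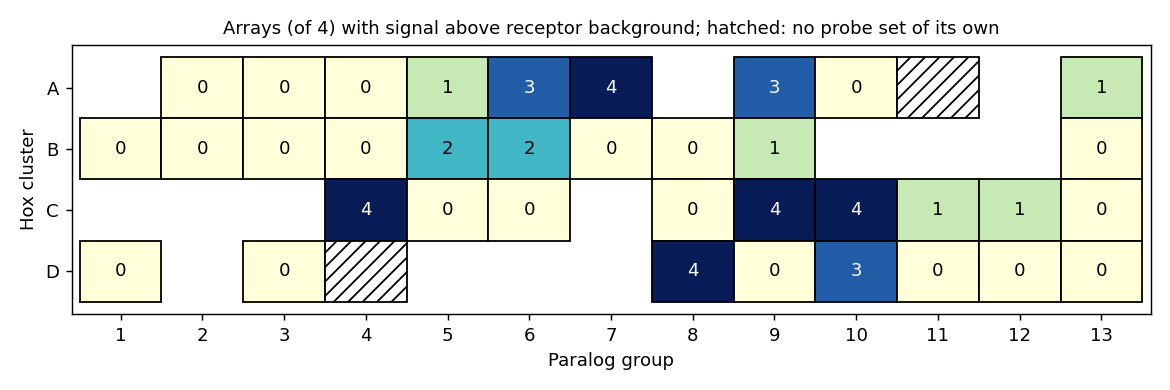
Number of arrays, of 4, on which each Hox gene exceeded the receptor background, by cluster (rows) and paralog group (columns); hatched cells had no probe set of their own, and blank positions hold no gene analysed here. The 5 genes at 4 arrays lie in groups 4, 7, 8, 9 and 10, while no gene of groups 1 to 3 exceeded background on any array.

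Hoxc10, known for its expression in the hindlimb and the lumbar region, gave signal above background on every array. It was at 4.91 in male 1, 4.63 in male 2, 4.74 in female 1 and 4.36 in female 2, between 1.63 and 2.01 above the background of the same array. Hoxc10 was also the only Hox gene that exceeded the 99th percentile of the receptor probe sets on all 4 arrays. The male and female values of Hoxc10 overlapped. Its neighbour Hoxc9, a gene of trunk identity, was at 3.54 and 3.39 in males and 3.22 and 3.49 in females, so all 4 arrays lay above background by 0.45 to 0.75. At the other end of the cluster, Hoxc4, a gene of neck and upper trunk identity, was at 3.40 and 3.90 in males and 3.73 and 3.64 in females. It lay above background by 0.51 to 1.05, with male 1 the lowest and male 2 the highest array.

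The genes of cluster C between and beyond these did not follow them. Hoxc5 was between 1.53 and 1.70 on all 4 arrays, and Hoxc8, the gene next to Hoxc9, was between 1.99 and 2.60. Hoxc6 and Hoxc13 were likewise below background on every array. Hoxc11 was at 1.68 in female 1 and 2.90 in female 2, and Hoxc12 at 2.32 and 3.05; both exceeded background in female 2 alone.

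In cluster D, Hoxd8 was at 3.98 and 4.09 in males and 4.21 and 4.12 in females, above background by 1.08 to 1.44. Its values had a narrow spread, with an SD of 0.08 in males and 0.06 in females (n = 2 each). Hoxd9, the next gene along the cluster, was between 1.84 and 2.16 and exceeded background on no array. Hoxd10, a gene of hindlimb and lumbar motor neuron identity, was at 2.84 and 3.31 in males and 3.02 and 3.32 in females, above background on 3 arrays. The genes at both ends, Hoxd1, Hoxd3, Hoxd11, Hoxd12 and Hoxd13, lay below background on every array; Hoxd13, the digit gene of the cluster, was between 1.75 and 1.87.

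In cluster A the signal lay in the middle of the cluster. Hoxa7 was at 2.96 and 2.94 in males and 3.40 and 3.20 in females, only 0.06 and 0.09 above background in males and 0.63 and 0.47 above it in females. Hoxa6, beside it, was between 2.74 and 3.04, and exceeded background on 3 arrays. Hoxa9 was at 2.73 and 3.04 in males and 3.38 and 3.14 in females, above background on every array but male 1. Hoxa10 was between 2.19 and 2.68 and exceeded it on none. Hoxa13 and Hoxa5 exceeded it on 1 array each, male 2 for Hoxa13 and female 2 for Hoxa5. Hoxa2, Hoxa3 and Hoxa4 stayed below it.

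In cluster B no gene exceeded background on all 4 arrays. Hoxb5 was at 3.45 in male 1, 2.81 in male 2, 2.66 in female 1 and 3.27 in female 2, so it was above background on 1 array of each sex. Its other probe set exceeded background on 1 array. Hoxb6 exceeded background on both female arrays and neither male array, and Hoxb9 on male 1 alone. The other 7 genes, Hoxb1, Hoxb2, Hoxb3, Hoxb4, Hoxb7, Hoxb8 and Hoxb13, exceeded it on none. Hoxb2 was between 1.19 and 1.45.

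**Figure D2:**
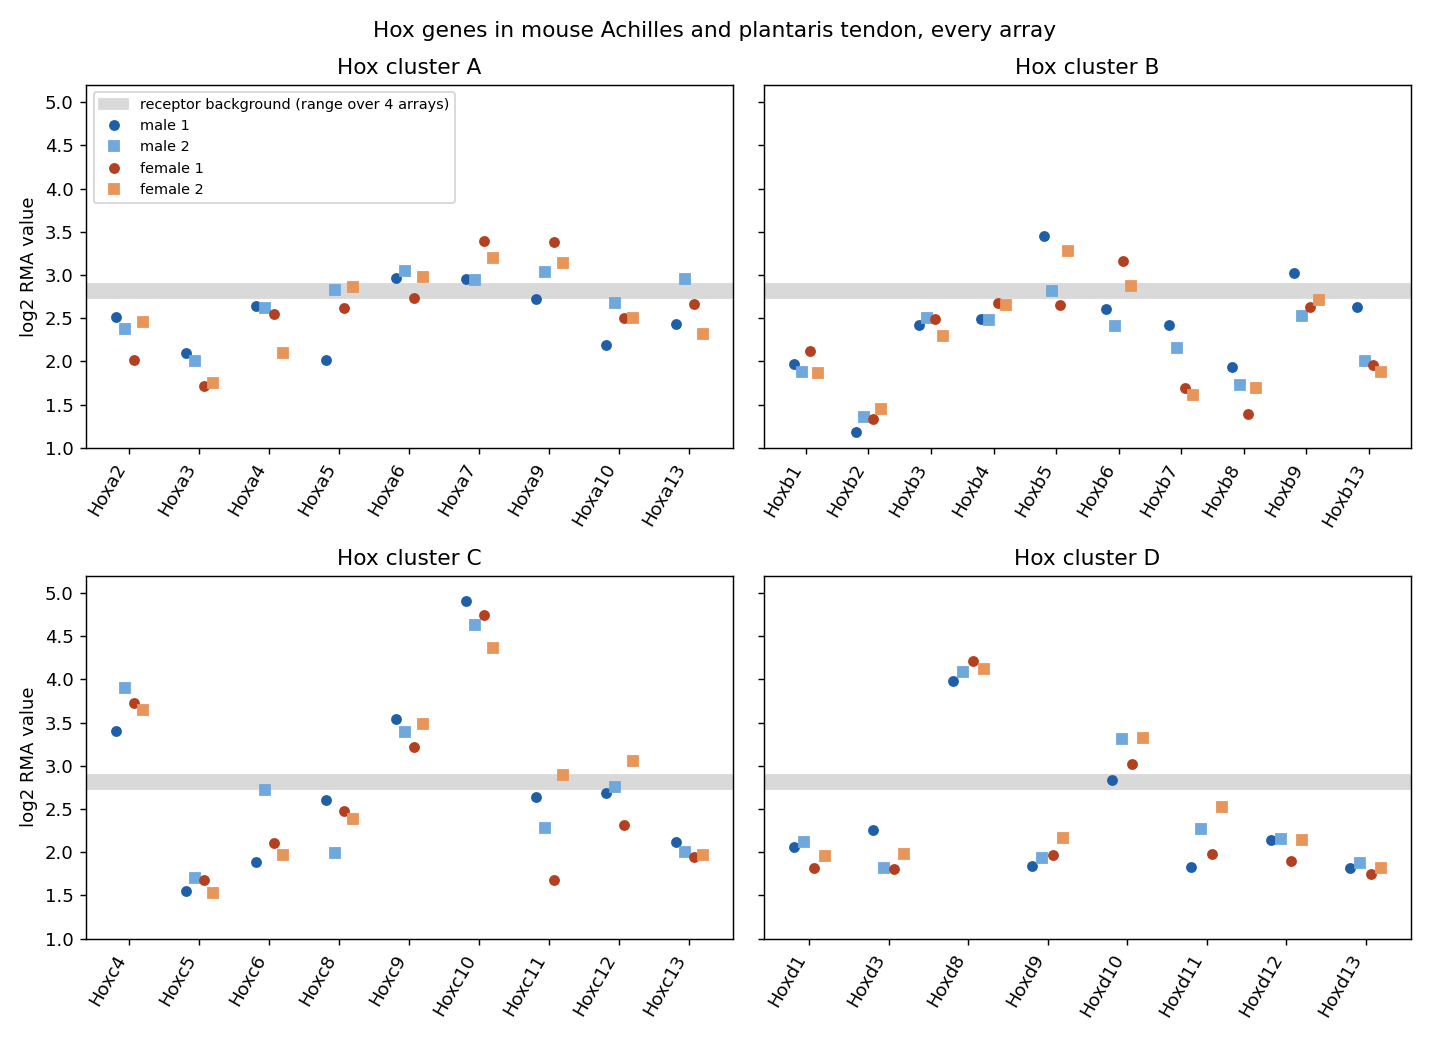
Log2 RMA values of the 36 Hox genes on every array, by cluster; the grey band is the range of the receptor background over the 4 arrays. Hoxc10 (4.36 to 4.91) and Hoxd8 (3.98 to 4.21) stand clear of the band on all 4 arrays, and most genes lie in or under it.

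By paralog group, groups 4, 7, 8, 9 and 10 each held 1 gene above background on all 4 arrays. In groups 1 to 3, 0 of 7 measured genes exceeded background on any array. In groups 11 to 13, 0 of 8 measured genes did so on all 4 arrays and 3 did so on 1 array (Hoxc11, Hoxc12 and Hoxa13). Only 2 of the 3 genes of group 11 were measured, since Hoxa11 had no probe set with its symbol alone. In group 9, Hoxc9 was above background on 4 arrays, Hoxa9 on 3, Hoxb9 on 1 and Hoxd9 on none. In group 10, Hoxc10 was above background on 4 arrays and Hoxd10 on 3, while Hoxa10 was below it on all. These ranges of groups were drawn after the values were seen and are a description.

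The sequence before the start site is shown for Hoxd8 and Hoxa7, 2 genes above background, and for Hoxd9, the neighbour of Hoxd8 below it. Each is the 150 bases upstream of the RefSeq start, build GRCm38.p6, 5′ to 3′ on the strand of the gene, with CpG dinucleotides, the sites of DNA methylation, in capitals.
Hoxd8, chr2:74704465-74704614, plus strand: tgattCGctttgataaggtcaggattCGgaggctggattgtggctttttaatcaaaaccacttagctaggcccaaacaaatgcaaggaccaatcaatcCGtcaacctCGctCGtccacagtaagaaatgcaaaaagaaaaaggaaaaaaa
Hoxd9, chr2:74697613-74697762, plus strand: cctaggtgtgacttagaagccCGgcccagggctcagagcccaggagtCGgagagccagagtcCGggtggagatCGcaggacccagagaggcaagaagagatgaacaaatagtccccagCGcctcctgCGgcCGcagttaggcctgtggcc
Hoxa7, chr6:52218574-52218723, minus strand: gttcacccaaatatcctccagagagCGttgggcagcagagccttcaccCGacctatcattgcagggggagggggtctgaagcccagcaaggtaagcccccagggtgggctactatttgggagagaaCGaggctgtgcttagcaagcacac

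These stretches hold 5, 7 and 3 CpG dinucleotides. Over the full 300-base windows of the RefSeq table, which run 50 bases past the start, 20 of the 36 genes had at least 1 window, 22 windows in all. Their median CpG count was 17, beside 7 over all 32851 windows of the table. The windows of Hoxd8, Hoxa7 and Hoxc4, genes above background on all 4 arrays, held 6, 9 and 9. The 14 windows of genes above background on no array had a median of 17 and a range of 4 to 37, and the 5 windows of genes above it on 1 to 3 arrays a median of 26 and a range of 4 to 45. Hoxc9 and Hoxc10 had no window here. With so few windows this is a description. The letters TGATTNAT, which Hox proteins bind with a Pbx partner, were found on either strand in 2 of the 22 windows (9.09%), those of Hoxa2 and of a start of Hoxd11, and in 3.22% of all windows. The Meis letters TGACAG were found in 2 windows (9.09%), those of Hoxa2 and Hoxa3, and in 19.2% of all windows. The homeodomain letters TAATTA were found in 2 windows (9.09%), both of the single gene Hoxd11, and in 5.29% of all windows.

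The sexes were then compared. No Hox gene passed the test, and neither did Xist (difference 5.47, limma adjusted p = 0.772) or Eif2s3y (-2.45, limma adjusted p = 0.969). With 2 arrays per sex, a count of 0 is no evidence that the sexes are alike. Limma called 0 of the 36 after Benjamini-Hochberg adjustment over all 23521 probe sets with 1 symbol, as it called 0% of all of them, and the lowest adjusted p of a Hox gene was 0.969. At an unadjusted p under 0.05 there were 2 Hox genes, Hoxb7 and Hoxb6, beside 4.49% of all probe sets. Female minus male differences ran from -0.64 to 0.50 with a median of -0.084, beside -0.0062 over all probe sets. A higher mean in females was seen in 14 Hox genes and a lower one in 22, where 48.8% of all probe sets were higher in females. Among the 17 Hox genes on probe sets above the median level, 9 were higher in females and the median was 0.031. The absolute difference was over 1 in 0 Hox genes and in 1.71% of all probe sets. For the 5 genes above background on all 4 arrays, the 95% interval of the difference lay within 1 of zero. The same held for 18 of the 21 genes below background on every array, where it sets no limit on a change in expression. The median SE was 0.19.

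Hoxb6, a gene of the thoracic and lateral plate region, had the widest difference toward females. It was at 2.61 and 2.41 in males and 3.16 and 2.87 in females, a difference of 0.50 (SE 0.18, 95% interval 0.01 to 0.99, limma adjusted p = 0.969). The male arrays lay below background and the female arrays above it, with background lower in females. Hoxb7, the neighbouring gene, had the widest difference toward males. It was at 2.43 and 2.16 in males and 1.69 and 1.61 in females, a difference of -0.64 (SE 0.17, 95% interval -1.09 to -0.19). All 4 values of Hoxb7 lay below background, so no direction is read from them; it is named because of its low p. The pair shows neighbours with opposite signs, and neither was called.

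In 10 Hox genes the mean of at least 1 sex lay above background. Of these, 4 had females above males on every array (Hoxa7, Hoxa9, Hoxb6 and Hoxd8) and the other 6 had overlapping arrays. Among the 10080 probe sets with a mean of a sex above background, 33.1% did not overlap and 21.2% had the females above. Hoxb6 entered this count through its female arrays alone, so its direction was set by the selection. Hoxa7 differed by 0.35 (SE 0.15) and Hoxa9, the next gene measured, by 0.37 (SE 0.19), while Hoxa6 on the other side was at -0.15 (SE 0.16) with overlapping arrays. Hoxd8 differed by only 0.13 (SE 0.15). Over all 36 genes the arrays did not overlap for 13, in 6 with the females above and in 7 with the males above, where 33.3% of all probe sets did not overlap, 15.8% with the females and 17.5% with the males above. The 3 genes above background in cluster C had overlapping arrays: Hoxc10 differed by -0.21 (SE 0.21), Hoxc9 by -0.11 (SE 0.17) and Hoxc4 by 0.03 (SE 0.22).

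**Figure D3:**
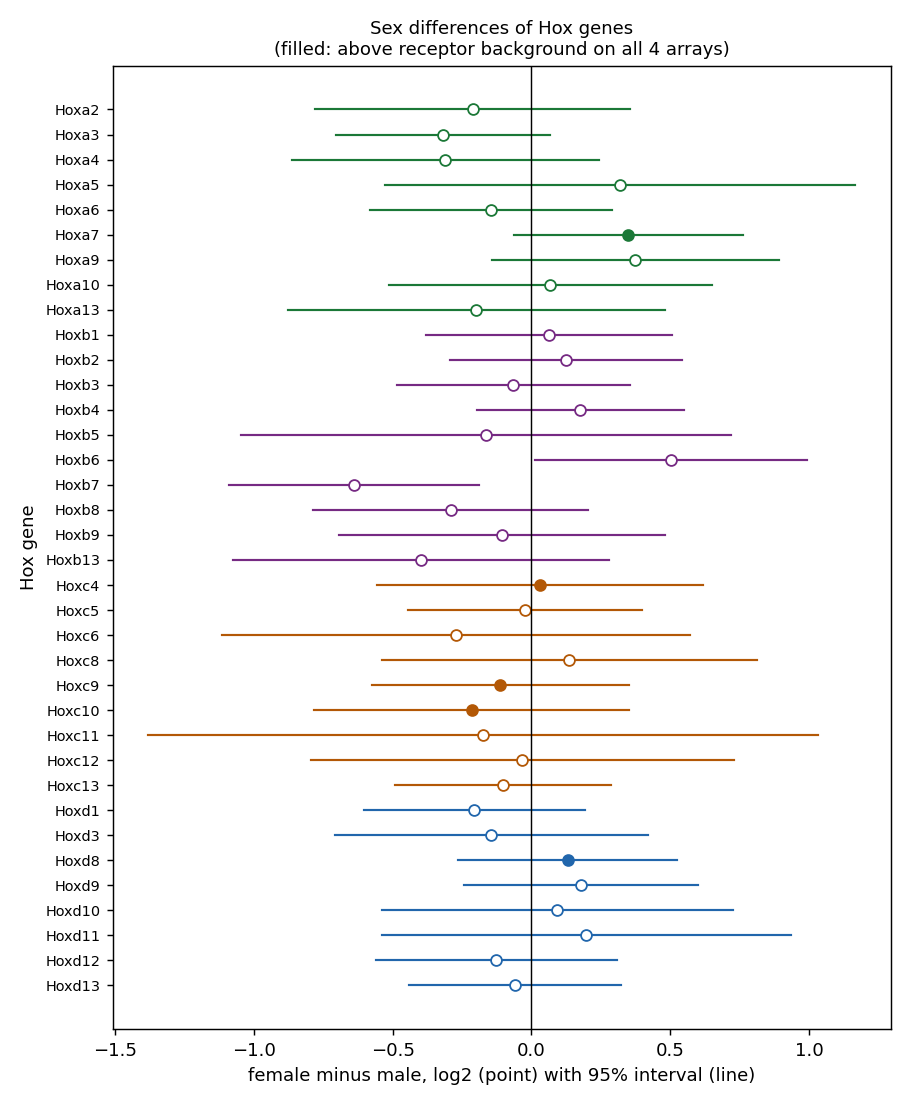
Female minus male difference of the log2 value for each Hox gene (point) with its 95% interval from limma (line), coloured by cluster; filled points mark the 5 genes above background on all 4 arrays. The intervals of Hoxb6 and Hoxb7 leave out 0, and neither gene passed the adjusted threshold.

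By cluster, the median difference was -0.15 in A (4 of 9 higher in females), -0.086 in B (4 of 10), -0.10 in C (2 of 9) and 0.018 in D (4 of 8). These are medians over genes that mostly lie below background, and no direction of a cluster is read from them. In paralog group 13, which marks the tail and the ends of the limbs, all 4 genes were lower in females, from -0.40 to -0.06. In 15 of their 16 values those genes lay below background, the exception being Hoxa13 in male 2, so this is no direction of expression.

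The clusters also hold microRNA genes, which repress messenger RNAs through pairing with their seed, bases 2 to 8. Both miR-196 and miR-10 are known to pair with Hox transcripts; miR-196 directs cleavage of Hoxb8 messenger RNA. Their mature forms, from RefSeq (GRCm38.p6), are shown 5′ to 3′ with the seed in capitals.
miR-196a-5p, from Mir196a-1 (chr11:96265187-96265208, plus strand) and Mir196a-2 (chr15:102973365-102973386, plus strand): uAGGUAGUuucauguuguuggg
miR-196b-5p, chr6:52230129-52230150, minus strand: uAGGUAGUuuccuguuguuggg
miR-10a-5p, chr11:96317186-96317208, plus strand: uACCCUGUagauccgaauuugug
miR-10b-5p, chr2:74726074-74726096, plus strand: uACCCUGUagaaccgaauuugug
miR-615-3p, chr15:103014969-103014990, plus strand: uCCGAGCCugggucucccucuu

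The forms fall into 3 seed families: miR-196a-5p and miR-196b-5p share one seed and differ at 1 position, miR-10a-5p and miR-10b-5p share another and also differ at 1 position, and miR-615-3p has its own. Mir196a-2 lies between Hoxc10 and Hoxc9. Its probe set was at 3.29 in male 1, 5.85 in male 2, 3.10 in female 1 and 3.27 in female 2. All 4 arrays were above background, and male 2 stood apart from the other 3. The female minus male difference was -1.39 (SE 0.88, limma adjusted p = 0.969) and rested on male 2, without which it was -0.11. Neither neighbour was higher in male 2 than in male 1: Hoxc10 was at 4.63 and Hoxc9 at 3.39 in male 2. Mir615, which lies within Hoxc5, was at 3.07, 3.17, 3.48 and 3.18 in males 1 and 2 and females 1 and 2, above background on all arrays although its host gene was not. Mir196a-1 in cluster B (2.00 to 2.40) and Mir10b in cluster D (1.07 to 1.38) lay below background throughout. Mir196b and Mir10a were not among the genes measured here. Hoxb8, the known target of miR-196, was also below background (1.39 to 1.93). Whether these probe sets measured a mature microRNA, its precursor or a longer transcript over it was not tested.

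Other genes at the clusters, and the ParaHox genes related to them, were compared with the same rule. Of the 17 measured genes on that list, 5 were above background on all 4 arrays: Mir196a-2, Mir615, Skap2, Mtx2 and Lnpk. The last 3 are genes beside the clusters that are not Hox genes. Mtx2, a mitochondrial import gene next to cluster D, was at 3.94 and 3.91 in males and 4.38 and 4.26 in females, a difference of 0.40 (SE 0.15, limma adjusted p = 0.969). Its arrays did not overlap. Hotair, a non-coding RNA of cluster C from between Hoxc12 and Hoxc11, was at 2.67 and 2.70 in males and 3.28 and 2.78 in females. It exceeded background in the females alone, where background was lower, and the difference was 0.35 (SE 0.22).

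Hox proteins bind DNA together with TALE homeodomain cofactors of the Pbx, Meis and Pknox families. Of 8 cofactor genes measured, 1 was above background on all 4 arrays. That gene, Pknox2, was at 5.09 and 5.54 in males and 5.21 and 5.03 in females, with overlapping sexes and a difference of -0.19 (SE 0.21). Pbx2, Pbx3, Pbx4, Meis1 and Meis2 were below background on every array.

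Chromatin regulators of the clusters were counted by the same rule, under which 31.5% of all genes were above background. The Polycomb genes, which keep Hox clusters silent, were above background on all 4 arrays in 8 of 15 measured members, and the Trithorax and demethylase genes, which keep them open, in 9 of 12. Limma called 0 members of either list, with a median difference of 0.08 and 0.09. The widest differences among the genes above background were Phc3 (0.36, SE 0.26) and Suz12 (0.12, SE 0.16) for Polycomb, and Ash2l (0.39, SE 0.17) and Dpy30 (-0.37, SE 0.38) for Trithorax. Retinoic acid, made from vitamin A, switches on Hox genes in order along the cluster. Of 16 genes of its synthesis, breakdown and receptors, 5 were above background on all 4 arrays and limma called 0. Crabp2, which carries retinoic acid to its receptors, was at 5.57 and 4.53 in males and 3.55 and 4.40 in females, a difference of -1.08 (SE 0.47, limma adjusted p = 0.969). Cyp26b1, an enzyme of its breakdown, differed by -0.32 (SE 0.30).

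Limb position genes outside the Hox clusters were above background on all 4 arrays in 9 of 17 members, and limma called 0. Tbx4, the T-box gene of the hindlimb, was at 2.92 in both males, barely above background, and at 3.01 and 3.41 in females. Its forelimb counterpart Tbx5 was between 2.14 and 2.42, below background on every array. Pitx1, a further hindlimb gene, exceeded background in male 2 alone (2.89). The widest differences among the genes above background were Isl1 (0.38, SE 0.19) and Meox2 (0.38, SE 0.35).

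**Figure D4:**
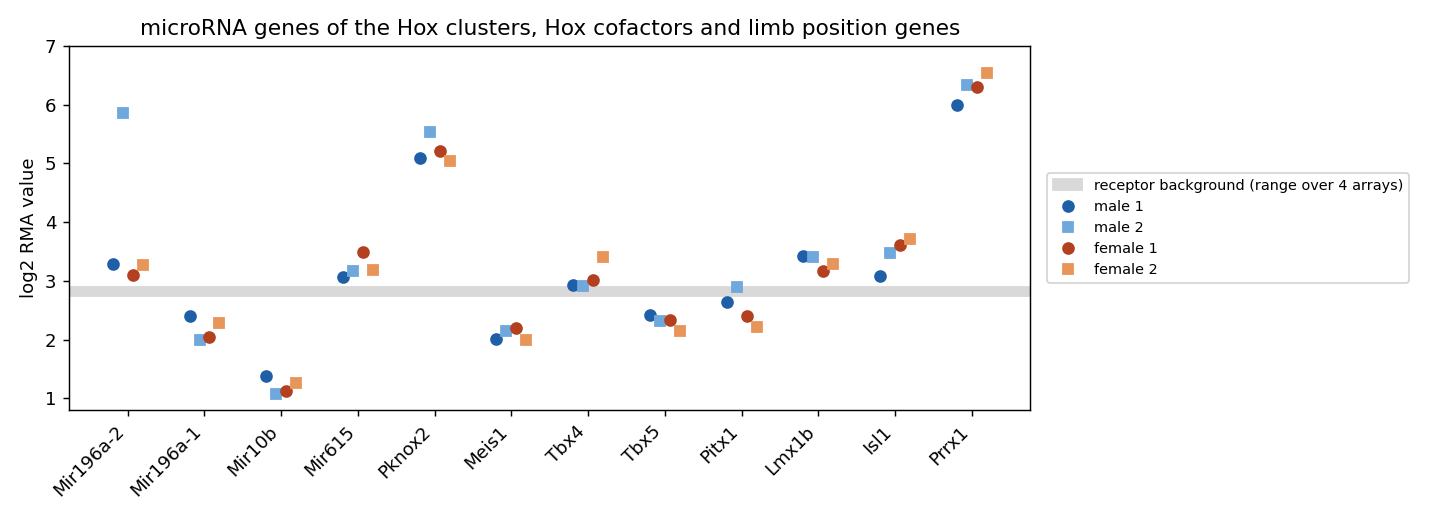
Log2 RMA values on every array of microRNA genes of the Hox clusters, 2 Hox cofactors and 6 limb position genes; the grey band is the range of the receptor background. Mir196a-2 was at 5.85 in male 2 and between 3.10 and 3.29 on the other arrays, and Tbx4 lay above the band where Tbx5 lay below it.

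The 4 arrays had similar Hox signal as a set. The median over the 36 genes was 2.46 and 2.45 in males and 2.40 and 2.42 in females. The number of Hox genes above background was 8 in male 1, 9 in male 2, 8 in female 1 and 13 in female 2. Over all probe sets with 1 symbol the share above background was 36.3%, 38.3%, 40.5% and 41.8% in the same order, so female 2 was the highest in both counts. Female 2 also had the lowest background (2.73).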

How the data were processed

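The deposited table held log2 expression values for 41345 rows, 1 column per array, made by the authors with oligo and RMA per the submitters' processing notes (versions, summary level and annotation: not given in the sources used here). Depth does not apply to arrays; their number limits the precision. Array medians lay between 2.27 and 2.30, and no further normalization was applied. GEO's platform annotation gave 23521 probe sets exactly 1 symbol, 1814 several and 16010 none; probe sets with several were not named.

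Sex was the single term of the model fitted to all 23521 probe sets with limma 3.58.1 in R 4.3.3 (lmFit, eBayes), with Benjamini-Hochberg adjustment over all of them and a threshold of 0.05. An exact permutation test of 2 against 2 cannot go below a p of 0.333. On simulated data for 2 females against 2 males, over 23521 probe sets, the fit called 0.149% of changed genes at a log2 change of 1, 35.8% at 2 and 77.0% at 3. Each simulated set held many changed genes at once, which eases the adjustment, and its spreads were drawn from the fitted prior. The measured data gave 0 calls, and Xist, with a difference of 5.47, was not called (limma adjusted p = 0.772). These shares may thus overstate how often the fit would call such changes on these arrays.

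Every array value was given for Hox genes above the 75th percentile of all rows on all 4 arrays, and for those with signal in a sex and arrays that did not overlap; further genes are examples picked with their values in view. From each pathway list the 2 widest differences above background were named. Members and lists were chosen with earlier results of these data known. The schwann, endothelial, satellite cell, and cartilage and bone marker lists were above background on all 4 arrays in 2 of 4, 4 of 6, 2 of 6 and 2 of 7 members, the adipocyte list in 5 of 6 and the macrophage list in 4 of 6. Sequences came from RefSeq tables of GRCm38.p6. Plots were made with matplotlib 3.10.9 (Python 3.11.15).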

Additional observations from a re-analysis of the deposited data

How the results depend on the processing

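The number of Hox genes above background on all 4 arrays, 5 in the report, depended on where background was set. It was 15 above each array's median (41.7% of the 36, beside 47.6% of all genes), 3 above each array's 75th percentile (8.33% beside 21.8%), and 1 above the 99th percentile of the receptor probe sets (2.78% beside 14.3%). It was 9 by the mean over arrays and 15 where 1 array sufficed. Without each array in turn it was 5 to 7; without male 1 Hoxa9 and Hoxd10 were added. In every fit limma called 0 Hox genes, also at an adjusted p under 0.1; the lowest adjusted p was 0.744. The median Hox difference was -0.057 after quantile normalization once more and also with each array centred on its median, and 0.031 over the 17 Hox genes on probe sets above the median level. Without each array in turn it was -0.080 to -0.0071, the last without female 1. The replicate numbers are shared by the sexes but no label pairs the samples (r of deviations -0.064 over 23521 probe sets); with the replicate number as a block the median was -0.084 and 0 Hox genes were called. Signs turned, with none called, for Hoxc4 after quantile normalization (-0.045). Without each array in turn, the difference of Hoxc4 was -0.22 (without male 1) to 0.28, with -0.012 without female 1. That of Hoxc9 was -0.25 to 0.021 (without female 1), Dpy30 -0.78 to 0.026 (without female 1), Pknox2 -0.42 to 0.029 (without male 2), Cyp26b1 -0.64 to 0.0047 (without male 1), Suz12 -0.0074 (without female 2) to 0.25 and Meox2 -0.083 (without female 2) to 0.84. The cause was not tested. The leave-out fits assume that a lone array varies like those of the other sex.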
